A study of Mus musculus with 2 samples.

Results

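The genes described here are 33 genes of the unfolded protein response and the integrated stress response. They were named by symbol with earlier results of these data known, and all 33 had a row among the 15239 genes of the table. They fall into 16 chaperones, folding enzymes and degradation genes of the endoplasmic reticulum (ER), 9 targets of the transcription factor Atf4, 3 stress sensors and 5 transcription factors. The study sequenced messenger RNA of normal mouse mammary basal cells, the outer epithelial layer of the gland, which include the contractile myoepithelial cells. The Scramble control library came from cells with a scrambled short hairpin RNA, and the Cdk14-sh library from cells with a hairpin against Cdk14, a membrane-associated kinase that acts with cyclin Y. The sources used here do not give strain, age, the vector and promoter of the hairpins, the time after their delivery or the number of animals. The labels also conflict: the cells are MDA-MB-231 (a line from a human breast cancer) in the design text, and retinas appear in the extraction protocol. All gene identifiers are of mouse.

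When unfolded proteins collect in the ER, 3 sensors of its membrane are activated. Atf6 is cut to release a transcription factor, the nuclease Ern1 (Ire1) splices the Xbp1 messenger RNA so that an active factor is made, and the kinase Eif2ak3 (Perk) phosphorylates the initiation factor eIF2 alpha. Atf6 and Xbp1 mainly raise chaperones, folding enzymes and degradation genes. Phosphorylated eIF2 alpha slows translation in general while it favours that of Atf4, and kinases that sense amino acid shortage, viral RNA or haem shortage act on the same site, which is why this arm is called the integrated stress response. Atf4 raises genes for amino acid synthesis and transport, and, with Ddit3 (Chop), genes of feedback and cell death. Secretory epithelia such as the mammary gland rely on this system for the folding of exported proteins. Cleavage of Atf6, phosphorylation and the translation of Atf4 are not visible in messenger RNA levels.

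With a single library for each hairpin (1 per group), differences have no replicate check and were not tested. Levels are in FPKM, a count of fragments scaled by gene length and library total. The log2 ratio sets Cdk14-sh over Scramble control after adding 1 FPKM to each, so it understates differences of low genes, whereas folds are ratios of FPKM alone. Intervals in parentheses are exact 95% binomial intervals of a fold for counting error alone, from reads recovered from the values. Such intervals tell apart libraries (2 here), not conditions. The values corresponded to totals of 10186924 reads in Scramble control and 10177185 in Cdk14-sh, and the 33 genes had between 35 and 37694 reads in a library. Cdk14 was at 0.713 FPKM in Cdk14-sh against 2.06, or 34.5% of the control level (25.6 to 45.3). Of 16 basal and myoepithelial markers, all had a row and 12 were lower in Cdk14-sh, with summed levels of 5233 FPKM in Scramble control and 3712 in Cdk14-sh. Of 7 retinal photoreceptor genes only Gnat1 had a row, at 1.88 and 0.130 FPKM.

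In the Cdk14-sh library the ER chaperone arm stood higher than in Scramble control, while the targets of Atf4 were divided. The median log2 ratio was 0.59 over the 16 chaperone-arm genes and 0.18 over the 9 Atf4 targets, a difference of 0.41, against 0.02 over 12830 measured genes (mean of at least 1 FPKM), whose SD was 1.02. The difference of 0.41 became 0.21 without members that share over 5% of exonic bases with another gene. From the compared lists this removed only Hsp90b1 and Manf, both above the arm median, so it could only lower the difference. The difference became 0.79 without Herpud1, Edem1, Ero1l, Calr and Canx. These all lay below the arm median, so leaving them out could only raise the difference. All 33 genes were measured. Of them 23 had a log2 ratio above 0, where 51.4% of all measured genes did. In 7 the level was at least 2-fold higher in Cdk14-sh, where 14.2% of measured genes passed that limit, and in 1 at least 2-fold lower, where 13.5% did. The 8 past 2-fold in either direction compare with 27.8% of measured genes. The chaperone arm held 5 of the 7 and the Atf4 targets 2. By counting interval, 20 genes (60.6%) were above 1 in fold and 7 (21.2%) below, where 35.9% and 33.2% of measured genes were, and 6 spanned 1. These shares are not matched for level, and intervals are narrower for genes with more reads. Of the 33 genes, 13 were among the 1000 highest of the table in Scramble control. In bulk RNA, fewer cells of a type and less RNA per cell cannot be told apart.

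**Figure D1:**
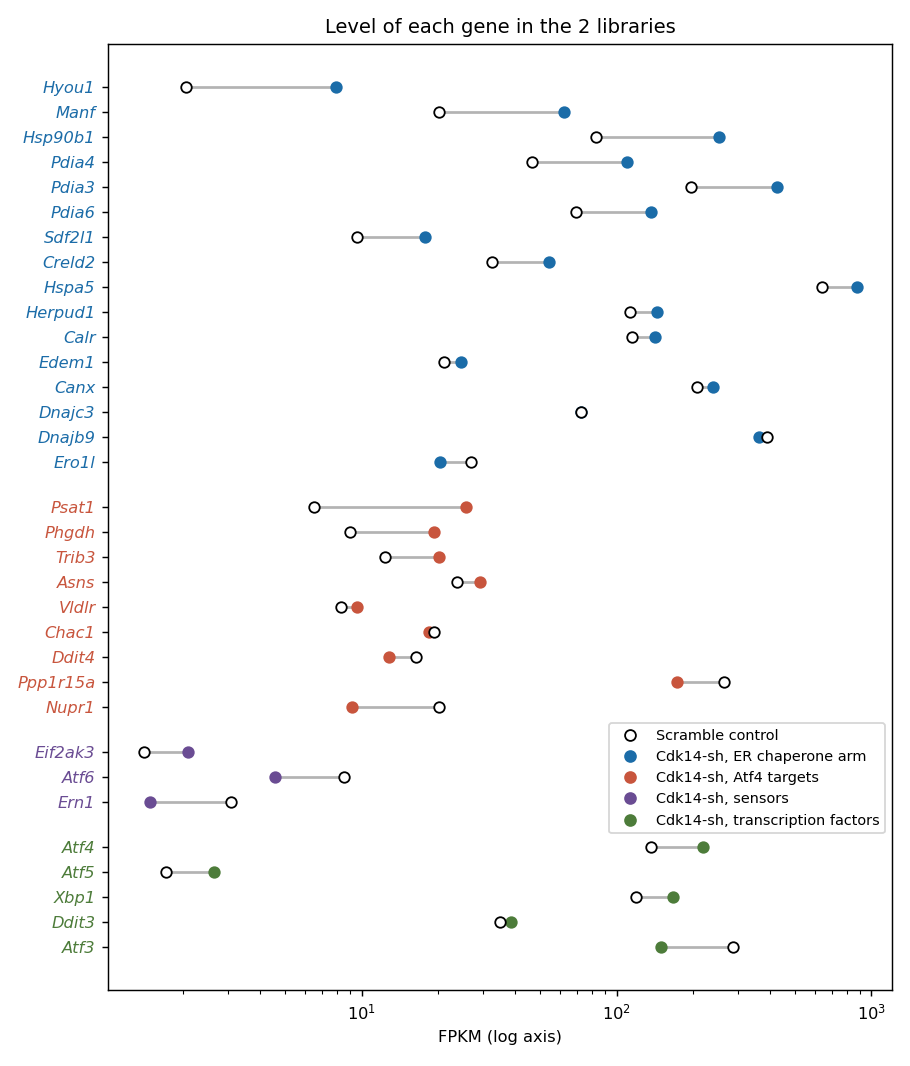
Level of each of the 33 genes in FPKM (log axis) in Scramble control (open points) and Cdk14-sh (filled points, coloured by role), 1 library each, ordered by fold within a role. Hspa5 stands at 642 and 876 FPKM, and the gap between the libraries is widest for Psat1 and Hyou1.

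The chaperone arm ranged from Hspa5, one of the most abundant transcripts of these cells, to Hyou1 at rank 10712 of 15239 in Scramble control. Its summed level was 2047 FPKM in Scramble control and 2949 FPKM in Cdk14-sh, a ratio of 1.44 (1.05 over all genes of the table). Hspa5 (BiP), the Hsp70 chaperone of the ER that also holds the sensors inactive, made up 31.4% and 29.7% of these sums. Hspa5 (ENSMUSG00000026864, chromosome 2, 34771970 to 34777547, GRCm38) was at 642 FPKM in Scramble control and 876 in Cdk14-sh, ranks 50 and 32 of all genes. It was 1.36-fold higher (1.33 to 1.39). Without Hspa5, the ratio of the sums was 1.48.

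Many promoters of these chaperones carry the ER stress response element (ERSE), the sequence at which Atf6 acts with the factor NF-Y. The element was searched on both strands as CCAAT and CCACG with any 9 bases between them, from 250 bases before to 50 after each start in the RefSeq promoter table (GRCm38.p6). Of the 16 chaperone-arm genes 14 had an entry, and 7 of them held the element, where 0.137% of 27025 genes did. Of 8119 measured genes with an entry 13 held it, these 7 among them. Hyou1, Manf and Atf6 had no entry, and Ero1l was matched by its current symbol. The 7 are printed because they show the element that these chaperones share in their start regions, with its fixed letters in capitals (CGTGG before ATTGG where it lies on the other strand). Stretches run in the direction of the gene, and that of Hspa5 is shorter because it overlaps an annotated exon.
Hspa5 (chr2:34772020-34772048, plus strand): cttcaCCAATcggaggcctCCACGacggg
Hsp90b1 (chr10:86705513-86705676, minus strand): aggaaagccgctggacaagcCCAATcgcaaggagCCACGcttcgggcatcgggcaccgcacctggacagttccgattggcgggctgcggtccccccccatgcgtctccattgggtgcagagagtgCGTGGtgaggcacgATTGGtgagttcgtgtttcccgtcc
Pdia6 (chr12:17266471-17266529, plus strand): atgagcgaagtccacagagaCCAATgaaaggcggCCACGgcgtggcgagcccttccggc
Creld2 (chr15:88819500-88819558, plus strand): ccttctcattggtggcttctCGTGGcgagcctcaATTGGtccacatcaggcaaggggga
Calr (chr8:84847055-84847113, minus strand): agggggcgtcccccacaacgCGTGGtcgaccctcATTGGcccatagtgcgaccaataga
Canx (chr11:50325780-50325838, minus strand): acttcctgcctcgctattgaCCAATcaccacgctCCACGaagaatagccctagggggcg
Dnajc3 (chr14:118937807-118937865, plus strand): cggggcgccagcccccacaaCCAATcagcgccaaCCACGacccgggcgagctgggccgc

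The element lay between 212 and 47 bases before the start in these 7 genes, and Hsp90b1 held it at 2 places, once on each strand. Whether carrying it sorts the chaperones by their difference could not be decided, because some of the arm could not be placed. Hyou1 and Manf, with log2 ratios of 1.56 and 1.59, had no entry and are in neither group. Herpud1, which holds a related element (ERSE-II, given below), is counted among the genes without it. Only exact letters were searched. The 7 genes with the element had a median log2 ratio of 0.45, with 1 of them at least 2-fold higher. The 7 without it had a median of 0.35, with 2 at least 2-fold higher, and the ranges overlapped (0.00 to 1.59 and -0.39 to 1.22). A match is a description of letters and shows no binding.

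The partners of Hspa5 differed more between the libraries than Hspa5 itself, but not all of them. Hyou1 (Grp170), a large Hsp70-related protein that exchanges the nucleotide of Hspa5, was at 2.04 FPKM in Scramble control and 7.96 in Cdk14-sh, 3.91-fold higher (3.02 to 5.11). Manf, a small secreted protein that binds Hspa5 and is released under ER stress, was at 20.1 and 62.4 FPKM, 3.10-fold higher (2.75 to 3.50). Hsp90b1 (Grp94), the Hsp90 chaperone of the ER, was at 82.8 and 252 FPKM, 3.04-fold higher (2.88 to 3.22). These 3 had the highest ratios of the arm. In Hsp90b1, 5.38% of exonic bases are shared with a gene on its strand and 10.3% with one on the opposite strand, and in Manf 8.85% with the opposite strand. The sources used here do not say whether strand was used in counting.

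The J-domain partners of Hspa5 in the arm, Dnajb9 and Dnajc3, were not higher in Cdk14-sh. Dnajb9 (ERdj4), an Xbp1 target that brings Hspa5 to misfolded proteins and to Ern1, was at 389 FPKM in Scramble control and 363 in Cdk14-sh, a fold of 0.933 (0.897 to 0.971). Dnajc3 (p58IPK), which serves Hspa5 in the ER lumen, was at 72.6 and 72.4 FPKM, a fold of 0.997 (0.935 to 1.06). Sdf2l1, which works with Hspa5 and J-domain proteins, was at 9.57 and 17.7 FPKM, 1.85-fold higher (1.32 to 2.63). Creld2, a secreted disulfide-related protein induced by ER stress, was at 32.5 and 54.6 FPKM, 1.68-fold higher (1.42 to 1.99). J-domain genes of the ER did not share a level of difference, since Dnajb11 (1.52-fold higher, 1.38 to 1.67) and Dnajc10 (1.28-fold higher, 1.12 to 1.47), which are not among the 33 and were named after their values were seen, were above the control level.

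Protein disulfide isomerases, which form and rearrange disulfide bonds in new proteins, were higher as a group of 3. Pdia3 (ERp57), which acts on glycoproteins held by calreticulin and calnexin, was at 196 FPKM in Scramble control and 427 in Cdk14-sh, 2.17-fold higher (2.08 to 2.27). Pdia4 (ERp72) was at 46.8 and 110 FPKM, 2.35-fold higher (2.13 to 2.59), and Pdia6 (P5), which also binds the sensors, at 69.5 and 137 FPKM, 1.98-fold higher (1.85 to 2.11). Pdia6 had a log2 ratio of 0.97 and so lay just under the 2-fold limit. Ero1l, the oxidase that recharges disulfide isomerases and is also a hypoxia target, went the other way, at 26.9 and 20.3 FPKM, a fold of 0.754 (0.673 to 0.844). It was the lowest of the 16.

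The lectin chaperones that hold glycoproteins with Pdia3 were far closer between the libraries than Pdia3 was. Calr (calreticulin) was at 115 FPKM in Scramble control and 142 in Cdk14-sh, 1.23-fold higher (1.15 to 1.31). Canx (calnexin), its membrane-bound counterpart, was at 207 and 239 FPKM, 1.15-fold higher (1.11 to 1.20). Of the degradation genes, Herpud1, a scaffold of the ubiquitin ligase that clears misfolded proteins, was at 113 and 144 FPKM, 1.28-fold higher (1.19 to 1.37). Edem1, which trims mannose from glycoproteins bound for degradation, was at 21.1 and 24.5 FPKM, 1.16-fold higher (1.05 to 1.29). The intervals of these 4 genes lay above 1 and all below those of Pdia3, Pdia4 and Pdia6.

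**Figure D2:**
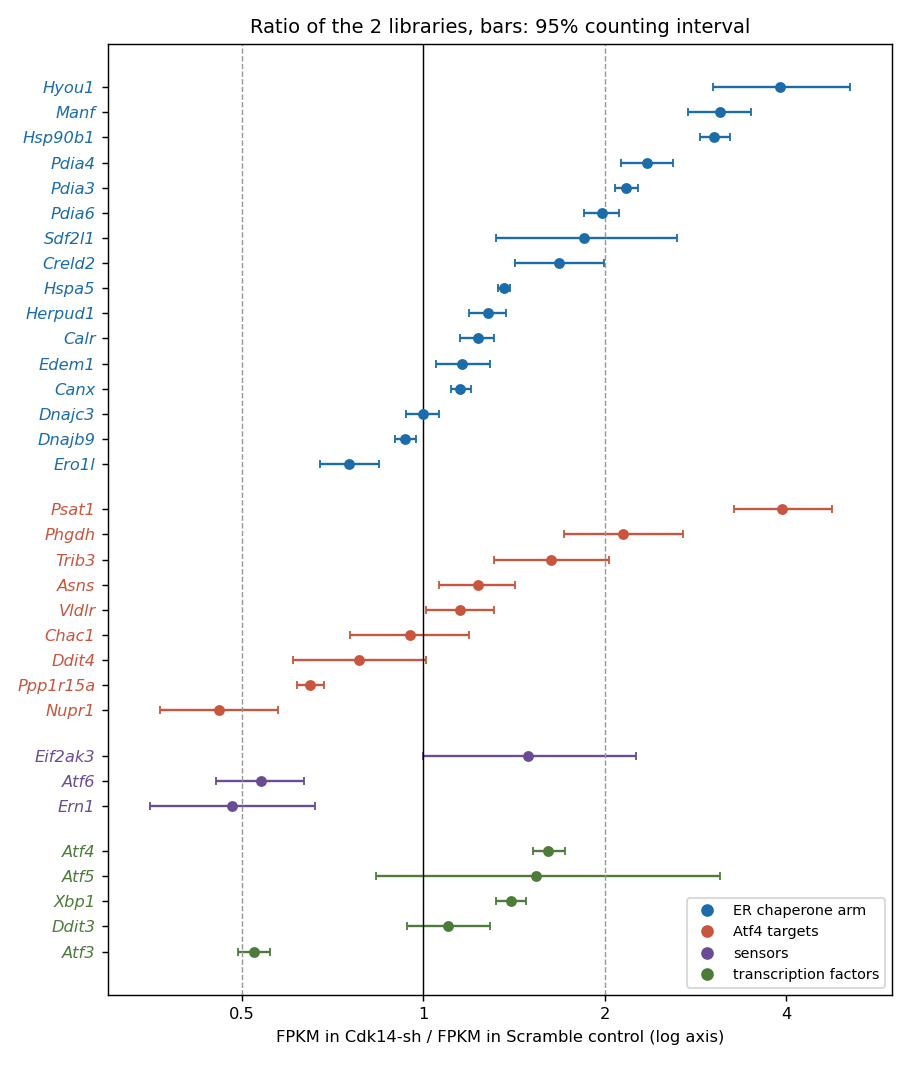
Ratio of FPKM in Cdk14-sh to Scramble control for the 33 genes (log axis), with bars for the 95% counting interval and dashed lines at 0.5 and 2. In the chaperone arm 13 of 16 points lie to the right of 1, while the Atf4 targets spread from 0.458 for Nupr1 to 3.94 for Psat1.

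The Atf4 targets lay on both sides of the control level. The 3 enzymes of amino acid synthesis among the 9 were higher in Cdk14-sh. Psat1, the transaminase of serine synthesis (ENSMUSG00000024640, chromosome 19, 15904678 to 15947337), was at 6.51 FPKM in Scramble control and 25.6 in Cdk14-sh, 3.94-fold higher (3.27 to 4.77). Phgdh, the dehydrogenase that opens the serine pathway, was at 9 and 19.3 FPKM, 2.14-fold higher (1.71 to 2.70). Asns, which makes asparagine, was at 23.7 and 29.1 FPKM, 1.23-fold higher (1.06 to 1.42). Psat1 had the largest log2 ratio of the 33 genes, 1.83. The split into enzymes (median 1.02 over 3) and other targets (median -0.20 over 6) was made after the values were seen, and Trib3, which is no such enzyme, had a higher fold than Asns.

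The feedback and stress targets of Atf4 lay on both sides. Trib3, a pseudokinase that restrains Atf4 and Akt, was at 12.4 FPKM in Scramble control and 20.2 in Cdk14-sh, 1.63-fold higher (1.31 to 2.03). Vldlr, a lipoprotein receptor, was at 8.31 and 9.56 FPKM, 1.15-fold higher (1.01 to 1.31). Chac1, which degrades glutathione and is a sensitive marker of the arm, was at 19.3 and 18.4 FPKM, a fold of 0.951 (0.757 to 1.19). Ddit4 (Redd1), an mTORC1 inhibitor that hypoxia and glucocorticoids also raise, was at 16.4 and 12.8 FPKM, a fold of 0.781 (0.608 to 1.01). For Chac1 and Ddit4 a difference was not detectable at this depth.

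The lowest of the Atf4 targets were Ppp1r15a and Nupr1. Ppp1r15a (Gadd34), the phosphatase subunit that reverses eIF2 alpha phosphorylation, was abundant at 264 FPKM in Scramble control and lower at 172 in Cdk14-sh, a fold of 0.649 (0.618 to 0.683). Nupr1, a small stress-induced nuclear protein (ENSMUSG00000030717, chromosome 7, 126623249 to 126630861), was at 20.1 and 9.18 FPKM, a fold of 0.458 (0.366 to 0.574). On the log2 scale with 1 FPKM added, Nupr1 was the single gene of the 33 at least 2-fold lower, with a log2 ratio of -1.05. By the plain FPKM ratio the sensor Ern1, at a fold of 0.481, was past 2-fold as well. Because Ppp1r15a alone outweighs the other targets, the summed level of the 9 genes was lower in Cdk14-sh, 316 against 380 FPKM, although their median log2 ratio was above 0.

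Atf4 binds with C/EBP proteins at a C/EBP-ATF response element (CARE), searched as TGATGNAAN on both strands in the same windows. It was found in 5 of the 9 Atf4 targets, where 4.50% of 27025 genes held it. Of 8119 measured genes with a promoter entry, 210 held it. In Trib3 it lies after the start, and the other 4 are printed with the fixed letters in capitals (TT, any base, then CATCA on the other strand), to show that targets on both sides of 1 carry the same letters. Those of Asns, Nupr1 and Vldlr are shorter because they overlap an annotated exon.
Asns (chr6:7693219-7693237, minus strand): ccacaTGATGaAActtccc
Chac1 (chr2:119351028-119351076, plus strand): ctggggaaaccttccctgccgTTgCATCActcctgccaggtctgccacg
Vldlr (chr19:27216814-27216832, plus strand): caatagTTgCATCAgcgct
Nupr1 (chr7:126625568-126625586, minus strand): gccagaTTgCATCAgacag

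The 5 targets with the element had a median log2 ratio of 0.18 (-1.05 to 0.66). The 4 without a match, among them Psat1 and Phgdh, had 0.34 (-0.62 to 1.83). Only exact letters in these windows were searched, so an element elsewhere or with other letters would be missed. A match again shows no binding. The element was also found before the starts of Atf3 and Herpud1. Herpud1 further held ERSE-II, searched as ATTGG and CCACG with any 1 base between them and found in 0.0444% of genes. It shares the block CCACG with ERSE and has the other block inverted and at another spacing, so a stretch could match both with the same CCACG. Its stretch is printed because it carries elements of both responses, the CARE first and ERSE-II second.
Herpud1 (chr8:94386296-94386407, plus strand): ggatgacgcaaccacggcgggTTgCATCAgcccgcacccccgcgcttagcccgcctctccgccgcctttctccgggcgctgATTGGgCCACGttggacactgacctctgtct

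Of the 3 sensors, Atf6 and Ern1 were lower in the library in which most chaperones were higher. Atf6 was at 8.53 FPKM in Scramble control and 4.58 in Cdk14-sh, a fold of 0.537 (0.453 to 0.635). Ern1 was at 3.07 and 1.48 FPKM, a fold of 0.481 (0.352 to 0.662), with a log2 ratio of -0.72 on the scale with a pseudocount of 1. Eif2ak3 was at 1.40 and 2.09 FPKM, a fold of 1.49 whose interval reached 1 (0.997 to 2.25), and 8.05% of its exonic bases are shared with the opposite strand. The sensors were the least abundant of the 4 groups per length, with summed levels of 13.0 FPKM in Scramble control and 8.14 in Cdk14-sh.

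The transcription factors of both arms were abundant except Atf5. Xbp1 was at 119 FPKM in Scramble control and 167 in Cdk14-sh, 1.40-fold higher (1.32 to 1.48). The FPKM of Xbp1 sums its spliced and unspliced forms. Ern1 removes 26 bases from exon 4 of Xbp1, within the coding sequence, and the site is printed because this step, not the level, activates the factor. The capitals mark the removed bases, found as the only pair of loops of the form CNGCAGN between 5 complementary bases on each side with cuts 26 bases apart in transcript Xbp1-201 of GENCODE M21. Of the 4 annotated Xbp1 transcripts, 3 hold the unspliced stretch and 0 the spliced one.
Xbp1 (chr11:5524271-5524313, plus strand): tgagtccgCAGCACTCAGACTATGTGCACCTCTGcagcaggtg

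Atf4 itself was at 136 FPKM in Scramble control and 219 in Cdk14-sh, 1.61-fold higher (1.52 to 1.72). Ddit3, the proapoptotic factor downstream of Atf4, was at 35 and 38.4 FPKM, a fold of 1.10 (0.939 to 1.29). In Ddit3, 6.13% of exonic bases are shared with a gene on its strand and 4.73% with one on the opposite strand. Atf5, which Atf4 raises in mitochondrial and ER stress, was at 1.71 and 2.63 FPKM, a fold of 1.54 from few reads (0.836 to 3.11). Atf3 (ENSMUSG00000026628, chromosome 1, 191170296 to 191218039), a repressor that responds both to Atf4 and to growth and dissociation stimuli, was lower, at 286 and 150 FPKM, a fold of 0.523 (0.493 to 0.556). So Atf4 and Xbp1 were higher, Atf3 lower, and for Ddit3 and Atf5 a difference was not detectable at this depth.

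**Figure D3:**
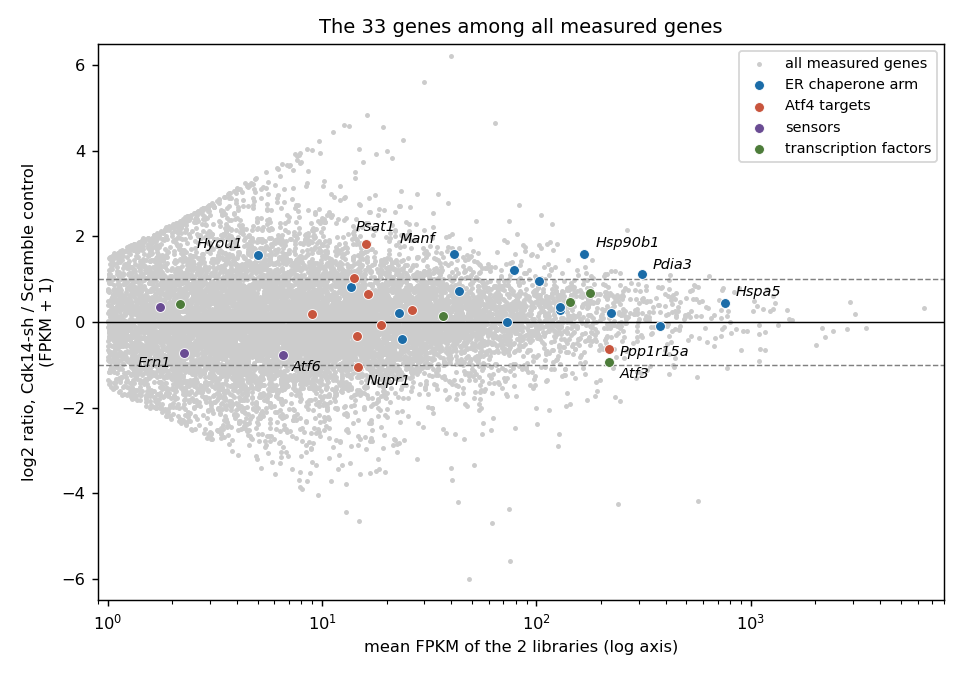
Log2 ratio of Cdk14-sh to Scramble control (FPKM + 1) against mean FPKM (log axis) for 12830 measured genes (grey) and the 33 genes (coloured by role), with dashed lines at 2-fold. The 33 genes lie inside the scatter of all genes, with Hspa5 farthest to the right and Psat1 highest.

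Other genes of the same systems were compared from lists. Of 26 measured further folding genes of the ER, 21 had a log2 ratio above 0 and the median was 0.57. In 6 (23.1%) the level was at least 2-fold higher and in 2 (7.69%) at least 2-fold lower, where 14.2% and 13.5% of all measured genes were. The highest were Erlin1, a lipid raft protein of ER degradation (0.0396 FPKM from 2 reads in Scramble control and 10.9 in Cdk14-sh, a ratio of 276, interval 49.2 to 10951), Cnpy2, an ER protein of the saposin-like family (30.7 and 115 FPKM), and Prkcsh, the glucosidase II beta subunit (3.95 and 11.4). The lowest were Hspa13, an Hsp70-like ER protein (32.8 and 14 FPKM), the prolyl isomerase Fkbp14 (7.86 and 3.34) and the oxidase Ero1lb (5.54 and 2.69). Both Ero1 oxidases, Ero1l and Ero1lb, were lower, while Pdia3, Pdia4 and Pdia6 were higher. The isomerase P4hb, named after its value was seen, was much closer between the libraries. It was at 140 FPKM in Scramble control and 156 in Cdk14-sh, 1.11-fold higher (1.05 to 1.18).

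Genes of translocation into the ER had a median of 0.36 over 24, of which 19 were above 0. In 3 (12.5%) the level was at least 2-fold higher, near the 14.2% of all measured genes, and in 1 (4.17%) at least 2-fold lower, against 13.5%. The signal peptidase subunit Spcs3 (18.1 FPKM in Scramble control and 51.1 in Cdk14-sh), the channel subunit Sec61b (34.3 and 83.3) and the translocating chain protein Tram1 (121 and 248) were the highest. Sec61g (9.96 and 4.39), the channel partner Sec62 (69.5 and 39.5) and the receptor subunit Srprb (11.6 and 6.28) were the lowest. Genes listed for ER-associated degradation did not share this direction, with a median of -0.15 over 20 and 8 above 0. Erlin1 and its homologue Erlin2 also act in degradation but were listed with the folding genes, and both were higher. Erlin2, named after its value was seen, was at 5.79 FPKM in Scramble control and 10.2 in Cdk14-sh. The highest of the 20 were the lectin Erlec1 (0.662 and 7.63 FPKM), Derl2, a derlin of the export channel (3.60 and 7.54), and Aup1 (13 and 24.6, with 23% of exonic bases shared). Their lowest were the ubiquitin ligase Rnf139 (22.8 and 5.74, with 26.2% of exonic bases shared), Herpud2 (18.3 and 9.43) and Ufd1l, a cofactor of the extracting ATPase (25.8 and 14.7).

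**Figure D4:**
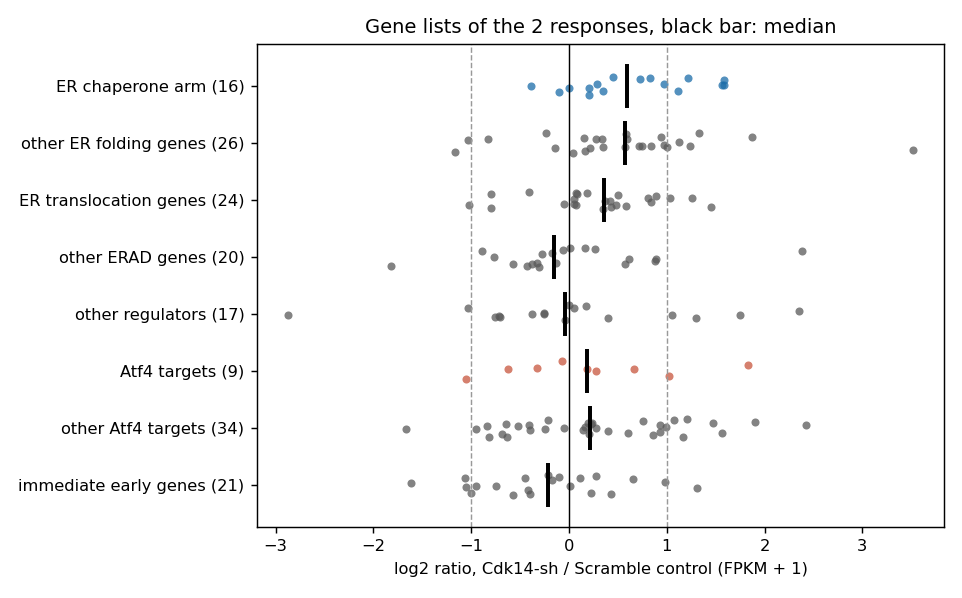
Log2 ratio of Cdk14-sh to Scramble control (FPKM + 1) of each measured gene in 8 lists, with the number of genes in parentheses, the median as a black bar and dashed lines at 2-fold. The chaperone arm, the other ER folding genes and the ER translocation genes have medians of 0.59, 0.57 and 0.36, and the other ERAD (ER-associated degradation) genes of -0.15.

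Further targets of Atf4 resembled the 9 in being spread on both sides. Of 34 measured, 21 were above 0 and the median was 0.22. Past 2-fold were 7 higher genes (20.6%, against 14.2% of all measured genes) and 1 lower (2.94%, against 13.5%). The highest were Sesn2, a leucine-sensing mTORC1 inhibitor that p53 also raises (2.54 FPKM in Scramble control and 17.9 in Cdk14-sh), the apoptosis gene Bbc3 (3.79 and 16.9) and Cth, which makes cysteine (1.86 and 7.43). The lowest were the glutamine transporter Slc1a5 (47.8 and 14.3), the glycine transporter Slc6a9 (2.16 and 0.637, with 30.2% of exonic bases shared) and Gars, the glycyl-tRNA synthetase (33.1 and 18). Psph, the last enzyme of serine synthesis, named after its value was seen, was at 7.18 and 11.4 FPKM, 1.59-fold higher (1.3 to 1.96) with 10.4% of exonic bases shared, so Phgdh, Psat1 and Psph of that pathway were all higher. Not every enzyme of amino acid synthesis was: Aldh18a1, which opens proline synthesis and was also named after its value was seen, was at 18.2 and 11 FPKM, a fold of 0.604 (0.51 to 0.713).

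Other regulators had no common direction, with a median of -0.04 over 17 measured genes and 7 above 0. The Atf6 homologue Atf6b (2.71 FPKM in Scramble control and 17.9 in Cdk14-sh) was 6.61-fold higher (4.69 to 9.56), in the opposite direction to Atf6. The ER membrane protein Wfs1 rested on 2 reads in Scramble control (0.0518 and 2.54 FPKM, a ratio of 49.0, interval 8.40 to 1976). Of the eIF2 alpha kinases, Eif2ak4 (Gcn2), the sensor of uncharged tRNA, was 3.18-fold higher (2.46 to 4.20) at 2.01 and 6.40 FPKM, and Eif2ak2 (Pkr), the sensor of double-stranded RNA, was 18.4-fold lower (10.8 to 32.8) at 10.4 and 0.567. Atf2 (34.1 and 16.2 FPKM) and Creb3 (32.5 and 18.8, with 20.8% of exonic bases shared) were the next lowest.

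Markers of other cells and of handling also differed between the libraries. Of 13 endothelial markers 12 were lower in Cdk14-sh, with summed levels of 260 FPKM in Scramble control and 64.4 in Cdk14-sh. Of 7 measured macrophage and antigen-presenting markers 6 were higher, with sums of 121 and 405 FPKM. Most of these sums came from the antigen-presenting markers Cd74 (49 and 175 FPKM) and H2-Ab1 (23.6 and 125). Below the filter, Ptprc was lower (0.482 and 0.247 FPKM) and Itgam higher (0.0409 and 0.307, with 79.1% of exonic bases shared). These genes were named after their values were seen. Fibroblast markers had sums of 299 and 121 FPKM with 4 of 6 measured genes higher, pericyte markers 127 and 60.0 with 3 of 4 lower, and luminal markers 1752 and 1117 with 6 of 10 lower. Of 12 plasma cell genes, whose cells hold much ER, 2 were measured: Sdc1, which basal epithelium also makes, at 82.3 and 160 FPKM, and Prdm1 at 13.7 and 2.11. Immediate early genes, which respond to cell dissociation as Atf3 and Ppp1r15a do, had a median of -0.21, with 13 of 21 below 0 and sums of 4418 and 3534 FPKM. That list was added after the data were seen. The part of these differences in the values of the 33 genes was not tested.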

How the data were processed

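Libraries of messenger RNA were prepared by a stranded kit, per the labels' protocols. The submitters' processing notes name GRCm38 and mm8 as builds, without a role, and the tools Bowtie 0.12.2, featureCounts and Subread 1.5.1. The authors deposited FPKM values for 15239 genes, all above 0 in both libraries, so genes seen in 1 library alone are absent. Column names abbreviate the sample titles. How multiply mapped reads were treated is not stated in these sources.

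Reads were recovered as FPKM times exonic length (GENCODE M21) and the library total, with the commonest low value taken as 2 reads. For 79.1% of genes with a length, and for 25 of the 33 genes, both values were multiples of 0.5 reads (tolerance 0.01 reads); the read numbers and intervals of the other 8 (Hsp90b1, Dnajb9, Dnajc3, Creld2, Ero1l, Ddit4, Atf4 and Atf5) are approximate. For intervals 2 reads counted as 1 fragment. They cover counting error alone, because without molecular identifiers several reads can come from 1 molecule. Depth was nearly equal, with a ratio of totals of 1.00.

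Measured genes had a mean of 1 FPKM or more, and 2-fold was counted on the log2 scale with a pseudocount of 1. Of genes sharing a symbol, lists used the one of highest mean. The named genes were all 33 and, of each other pathway list, the 3 highest and 3 lowest log2 ratios; names outside this rule are marked or belong to the background. The members and lists were chosen with earlier results of these data known. Alternatives were pseudocounts of 0.1 and 5, filters of none and of 5 FPKM, 4 scalings, limits of 1.5-fold and 4-fold, means and changed lists. Promoters came from RefSeq. Scripts used Python 3.11.15, pandas 2.3.3 and SciPy 1.17.1, and were tested on simulated data. The simulation used the same gene lengths and 2 reads per fragment as the recovery of reads, so it could not check these assumptions.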

Additional observations from a re-analysis of the deposited data

How the results depend on the processing

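With 1 library per group nothing could be left out, no paired analysis was possible and no test was made. The 7 genes at least 2-fold higher became 12 at a limit of 1.5-fold and 0 at 4-fold, and the 1 at least 2-fold lower became 5 and 0. Of all measured genes 25.2% were higher and 24.5% lower at 1.5-fold, and 3.27% and 2.69% at 4-fold. With a pseudocount of 0.1, 2 were at least 2-fold lower, since Ern1 reached -1.01, and with a pseudocount of 5 there were 0. Of all measured genes 17% were at least 2-fold lower with a pseudocount of 0.1 and 4.77% with a pseudocount of 5. Phgdh fell inside 2-fold with a pseudocount of 5 (0.79), scaled by the trimmed mean (1.00, just under the limit) and scaled to the same sum of FPKM (0.96), and Hyou1 (0.88) and Nupr1 (-0.82) with a pseudocount of 5. The chaperone-arm median of 0.59 became 0.97 without Herpud1, Edem1, Ero1l, Calr and Canx, which all lay below it, and its difference from the Atf4 targets 0.79. After seeing the data, members whose recovered reads were not whole were left out. This gave a chaperone median of 0.83 and a difference of 0.59. Leaving out members sharing over 5% of exonic bases instead, also after seeing the data, gave 0.40 and 0.21. From the compared lists that step removed only Hsp90b1 and Manf, both above the arm median, so it could only lower these values. No gene of the 33 changed sign under the pseudocounts and scalings. Taking each read as 1 fragment changed the side of 1 for the intervals of 2 of the 33 genes, Ddit4 (0.653 to 0.93) and Eif2ak3 (1.12 to 1.98). Depth limits Atf5 and Eif2ak3 most, and reads of genes that share exonic bases cannot be told apart.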

Other observations

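Genes outside the 33 that hold ERSE in their start region were few. Of 13 measured genes with the element 8 had a log2 ratio above 0 and the median was 0.29, but the 6 that are not among the 33 had a median of -0.40. Past 2-fold on the log2 scale were 2 higher genes and 2 lower. Among these 6, named after their values were seen, Spats2l (0.476 FPKM in Scramble control and 5.49 in Cdk14-sh) and the RNA-binding gene Hnrnpa3 (2.75 and 7.75) were higher, and the deadenylase subunit Pan2 (7.06 and 2.08) and the zinc finger gene Zfp57 (2.33 and 0.415) were lower. Adcy3, an adenylyl cyclase, was at 1.74 and 0.637 FPKM, 2.74-fold lower by the plain ratio (1.62 to 4.84), with 22.1% of exonic bases shared. Syvn1 (Hrd1), the ubiquitin ligase of ER-associated degradation, holds the element and was at 5.60 and 5.34 FPKM. Besides Herpud1, 6 measured genes held ERSE-II, with a median of 0.08. Of these Lgalsl (a fold of 0.59), Rcl1 (0.788) and Rbm39 (0.891) were lower in Cdk14-sh, and Nucb1 (1.27), Dnajb11 (1.52) and Krtcap2 (2.33) were higher. The 203 measured genes outside the 33 with the CARE letters had a median of 0.09, against 0.05 over 8119 measured genes with an entry.

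The 9 measured genes of a list of apoptosis genes, not all of them particular to ER stress, had a median log2 ratio of 0.20. In 2 (22.2%) the level was at least 2-fold higher in Cdk14-sh, where 14.2% of all measured genes were. In 0 it was at least 2-fold lower, where 13.5% were. The highest were Pmaip1 (Noxa), at 0.0742 FPKM from 2 reads in Scramble control and 22.5 in Cdk14-sh (a ratio of 303, interval 55.8 to 12414), Bbc3 (Puma), given above, and Bax, at 22.5 and 39.1 FPKM. The lowest were Bcl2l11 (Bim), at 34.4 and 21.6 FPKM, the death receptor Tnfrsf10b, at 5.39 and 4.40, and Dapk3, at 20.3 and 18.2. Ddit3, which is known to raise Bim and Tnfrsf10b, was at 35 and 38.4 FPKM.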
